A study of Mus musculus with 15 samples.

Results

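The genes described here are 37 genes of the G2 phase and of mitosis, read in mouse liver cells kept in culture and in freshly isolated hepatocytes. They were chosen by name: a gene was a member where a probe of the array carries its name in the scanner files. The 37 members have 65 of the array's 41174 probes and are 37 of its 27376 gene names. By role they are the genes of entry into mitosis (Ccnb1, Ccnb2, Ccna2, Cdk1, Cdc25c, Plk1 and Foxm1), the spindle checkpoint (Bub1, Bub1b, Bub3, Mad2l1 and Ttk), the anaphase-promoting step and sister separation (Cdc20, Ube2c, Pttg1 and Espl1), the aurora kinases with their partners (Aurka, Tpx2, Aurkb and Birc5), the motor kinesins (Kif11, Kif20a, Kif23, Kif2c, Kif4 and Kif22), the centromere and kinetochore (Cenpa, Cenpe, Cenpf, Ndc80 and Nuf2), the spindle midzone and cytokinesis (Prc1, Nusap1, Anln and Ect2), and the chromosome (Top2a and Mki67).

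The study grew expandable hepatocytes from the livers of 3 mice, labelled 129S1-No1, 129S1-No2 and C57B6-No1, for 21 days in either of a pair of media, one for expansion and one for differentiation, and measured total RNA on one-colour Agilent arrays. The labels call the cultured cells eHep and mHep, with 7 arrays of each: 3 and 3 from 129S1-No1, 3 and 3 from C57B6-No1, and 1 and 1 from 129S1-No2. The labels do not spell out mHep, and they name no transgene, allele or further agent. One array holds hepatocytes isolated from C57B6 mice by collagenase perfusion, called primary here, and it has no replicate. The mHep array of 129S1-No2 carries an eHep source name and an mHep title and was placed by its title. Only 1 C57B6 mouse was cultured, so strain and animal cannot be told apart, and the labels do not say whether the arrays of a mouse were separate cultures, so p-values within a mouse may measure technical spread.

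Dividing cells make most of these transcripts in a burst that begins in late S phase and peaks in mitosis. Cyclin B with its kinase Cdk1 drives entry, the spindle checkpoint holds the cell until every chromosome is attached, and Cdc20 then turns the anaphase-promoting complex on securin and the cyclins so that separase can part the sister chromatids. In resting cells, the normal state of adult hepatocytes, the DREAM complex holds many of these promoters silent through an element called CHR, often together with CCAAT boxes that bind the factor NF-Y, and in dividing cells B-Myb and Foxm1 switch the same promoters on.

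RefSeq promoter windows, which run from 250 bases before the transcription start to 50 bases after it, were at hand for 31 members on the build GRCm38.p6. The CHR letters TTTGAA or TTCGAA, read on either strand, stood between 100 bases before and 50 bases after the start in 23 of the 31 members (74.2%), against 9.87% of all 27025 genes with a window. CCAAT, also on either strand, occurred in the 300-base window of 23 members (74.2%), against 41.1% of all genes, and occurred 2 or more times in 16 members (51.6%) against 13.3%. A CHR match and a CCAAT match can share no more than an end letter, while CCAAT and its reverse complement can overlap, as they do upstream of Ube2c. A match describes the letters only. The promoters of 6 members whose transcripts carry the comparisons below are shown from 120 bases before to 30 bases after the start, 5′ to 3′ along the gene's strand, with CHR and CCAAT letters in capitals.
Ccnb1, chr13:100786457-100786606, strand minus: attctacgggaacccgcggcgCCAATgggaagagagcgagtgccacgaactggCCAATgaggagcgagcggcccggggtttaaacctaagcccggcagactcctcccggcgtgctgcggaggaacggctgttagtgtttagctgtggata
Cdk1, chr10:69352883-69353032, strand minus: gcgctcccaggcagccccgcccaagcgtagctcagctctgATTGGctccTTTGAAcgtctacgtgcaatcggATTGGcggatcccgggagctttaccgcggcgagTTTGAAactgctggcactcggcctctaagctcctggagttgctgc
Cdc20, chr4:118437314-118437463, strand minus: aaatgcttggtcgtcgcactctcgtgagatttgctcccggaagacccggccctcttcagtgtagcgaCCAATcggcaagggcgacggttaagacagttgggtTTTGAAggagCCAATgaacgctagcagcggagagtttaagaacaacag
Ube2c, chr2:164769809-164769958, strand plus: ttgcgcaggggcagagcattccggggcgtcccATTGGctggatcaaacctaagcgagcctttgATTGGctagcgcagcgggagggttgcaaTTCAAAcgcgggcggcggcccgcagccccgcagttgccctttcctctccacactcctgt
Espl1, chr15:102296173-102296322, strand plus: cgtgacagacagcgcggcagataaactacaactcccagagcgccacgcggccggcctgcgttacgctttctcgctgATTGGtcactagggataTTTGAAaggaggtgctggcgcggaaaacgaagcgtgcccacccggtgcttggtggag
Cenpa, chr5:30666766-30666915, strand plus: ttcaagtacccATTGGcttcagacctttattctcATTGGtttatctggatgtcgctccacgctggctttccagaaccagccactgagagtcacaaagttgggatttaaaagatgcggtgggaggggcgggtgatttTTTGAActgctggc
The promoters of Cdk1 and Cdc20 hold both elements close to the start: the CHR letters begin 15 and 71 bases before it in Cdk1 and 18 bases before it in Cdc20. In Espl1 and Ube2c they begin 27 and 29 bases before the start, and in Cenpa at base 17 after it. The Ccnb1 window has CCAAT boxes 67 and 99 bases before the start and no CHR letters in this form. In 5 members neither motif stands in the window: Birc5, Mad2l1, Nuf2, Nusap1 and Pttg1.

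Levels below are log2 of the array's processed signal minus that array's 75th percentile, so 0 is that percentile. A level belongs to its own probe and does not compare one gene with another. Each gene was read from its brightest probe, and a probe counts as measured where the scanner software calls it well above background. Between 48.8% and 61.9% of the probes passed that call on the cultured arrays and 36.3% on the dimmer primary array. Of the members, 31 to 37 were well above background on the eHep arrays, 24 to 36 on the mHep arrays and 14 on the primary array. The hepatocyte markers Alb, Apoa1, Ttr, Ahsg, Fgg and Hnf4a summed to 1.23 to 8.11 on the eHep arrays, 159 to 1411 on the mHep arrays and 8335 on the primary array, in units of each array's 75th percentile, and no eHep array measured Ttr above background, so by these markers the eHep arrays lay far below primary hepatocytes. Of the markers of other liver cells, the macrophage genes Emr1, Clec4f, Cd163, Cd5l and Timd4 and the endothelial genes Pecam1, Cdh5 and Tie1 were not well above background on any cultured array. Of these, Cd163, Timd4, Pecam1 and Tie1 were not well above background on the primary array either. Other genes of both lists were measured: each cultured array had 2 to 3 of the 8 macrophage genes and 1 to 3 of the 7 endothelial genes well above background. The cholangiocyte list (Krt19, Krt7, Epcam, Sox9, Spp1 and Cftr) summed to 268 to 618 in eHep, 149 to 849 in mHep and 5.38 in primary cells, the macrophage list to 0.188 to 2.89, 0.326 to 0.986 and 14.2, and the stellate cell and fibroblast list to 15.3 to 33.4, 16.9 to 30.7 and 18.0. The endothelial list summed to at most 0.468 and the blood list to at most 0.365 on the cultured arrays. The part of these cell-type values in the results was not tested.

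The main comparison asked how the members differed between the media in the same mice. Every member with a test was lower in mHep than in eHep in the mean over the 3 mice, and the fall passed the threshold for 9 of 36: Ccnb1, Espl1, Cdc25c, Cenpa, Aurka, Kif20a, Tpx2, Ube2c and Anln. None was higher, where limma called 1.38% of genes higher, and 33 of the 36 had an unadjusted limma p under 0.05. The test was limma on 6 mouse means with mouse as a block, with adjusted p under 0.05 over 14602 genes, and it called 0.452% of all genes lower. The member Ttk was too dim to be tested. Of the other 36, 28 met the brightness rule in both media and 8 met it in eHep alone, the medium in which they read higher, so a difference was built into their selection: Cdc25c, Espl1, Kif11, Kif2c, Cenpf, Ndc80, Anln and Top2a. Of the 9 called members 6 were among the 28, and Espl1, Cdc25c and Anln were among the 8. The median difference of the 36 was -2.74 on the log2 scale, against -0.09 for all genes tested. In the means of all 3 mice mHep lay below eHep for 35 of the 36, against 23.3% of all genes, and at least 1 log2 unit below in every mouse for 26 of the 36, against 2.88%. For 15 of the 36 the highest mHep array was below the lowest eHep array, against 2.86%. In bulk RNA, fewer cells in G2 and mitosis and less of each transcript per cell cannot be told apart.

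How many members passed the threshold moved widely with the choices made. With quantile normalization and with the deposited table of values the count was 0, while 31 members had an unadjusted limma p under 0.05 in each. With mouse left out of the model it was 0 of 36, with 25 at an unadjusted p under 0.05, and limma called 0 of all 14602 genes lower. With 1 of the mice left out it rose to between 20 and 32. Leaving out 129S1-No1 gave 24 of 31 (2.82% of all genes), C57B6-No1 32 of 36 (1.22%) and 129S1-No2 20 of 31 (2.60%). With the 14 arrays taken as samples it was 31 of 36, against 21.1% of all genes, but those p-values treat arrays of 1 mouse as independent. The median member difference ran from -3.42 to -1.96 over the 17 settings tried.

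**Figure D1:**
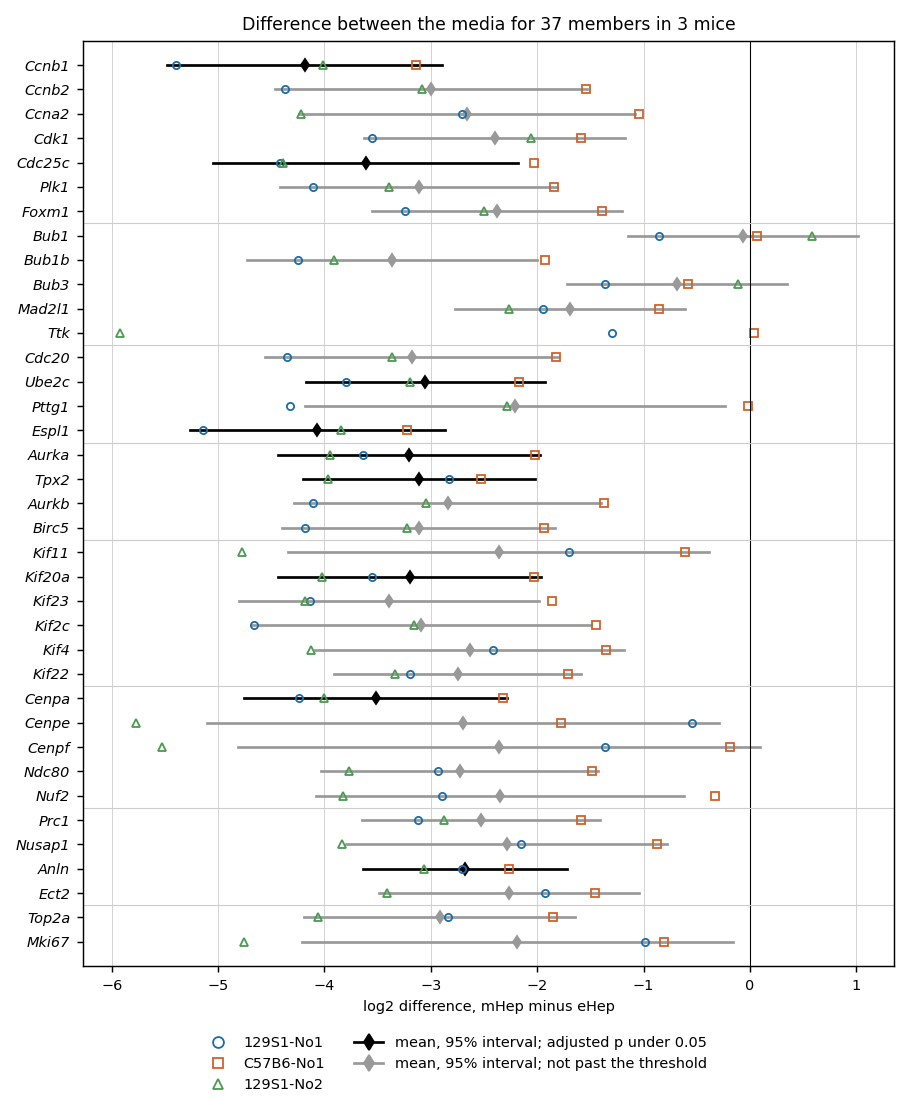
The log2 difference of mHep minus eHep (horizontal axis) for each of the 37 members (rows, grouped by role), with open symbols for the 3 mice and diamonds with lines for the mean and its 95% interval. The 9 black members passed the threshold, grey ones did not and Ttk has no test; Bub1 and Ttk alone have a mouse above 0.

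Among the genes that start mitosis, all 7 had a mean difference of -2.38 or below and 2 passed the threshold. Ccnb1, which encodes cyclin B1, was read by a probe at chr13:101549634-101549693 (mm9, minus strand). Its eHep arrays ran from -0.08 through a median of 0.87 to 2.11, its mHep arrays from -5.01 through -3.10 to -1.91, and the primary array stood at -3.61, not well above background. No mHep array reached any eHep array. The mouse means were 1.17 ± 0.84 in eHep and -3.01 ± 1.33 in mHep (SD, n = 3 mice), a difference of -4.19 with a standard error of 0.53 and an adjusted p of 0.026, or 18.2-fold higher in eHep. The other Ccnb1 probes differed by -3.35 and -3.45. Cdc25c, the phosphatase that activates Cdk1, was measured on 5 arrays of eHep and 1 of mHep. Its eHep arrays ran from -4.54 through -2.84 to -0.88 and its mHep arrays read from -7.69 through -6.72 to -4.66. It differed by -3.61 on these readings (SE 0.59, adjusted p 0.048), or 12.2-fold, but 6 of the 7 mHep readings lay under background. With mHep readings raised to the dimmest measured signal of their array the fold was 5.17, and with both media so raised the difference was -2.40 and did not pass (adjusted p 0.180).

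The kinase gene Cdk1 was measured on every cultured array by a probe at chr10:68805423-68807832 (mm9, minus strand). Its eHep arrays lay at 0.56, 1.53 and 2.08 (lowest, median, highest) and its mHep arrays at -2.37, -1.10 and 0.02, again without overlap. The difference of -2.40 (SE 0.50) had an adjusted p of 0.087 and did not pass. Its means were 1.54 ± 0.52 and -0.86 ± 1.09 (SD, n = 3 mice). Plk1, the polo-like kinase of mitotic entry, had means of 3.20 ± 0.91 and 0.09 ± 0.79 and a difference of -3.11 with an adjusted p of 0.054. Cyclin B2 (Ccnb2) had means of 3.64 ± 1.22 and 0.64 ± 1.34 (adjusted p 0.080), and cyclin A2 (Ccna2) differed by -2.66 (adjusted p 0.125). Foxm1, the transcription factor of the G2 programme, lay between -1.25 and 1.81 with a median of -0.17 in eHep, and between -3.88 and -0.69 with a median of -2.67 in mHep. The Foxm1 arrays overlapped, and its difference of -2.38 (SE 0.48) had an adjusted p of 0.0815.

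**Figure D2:**
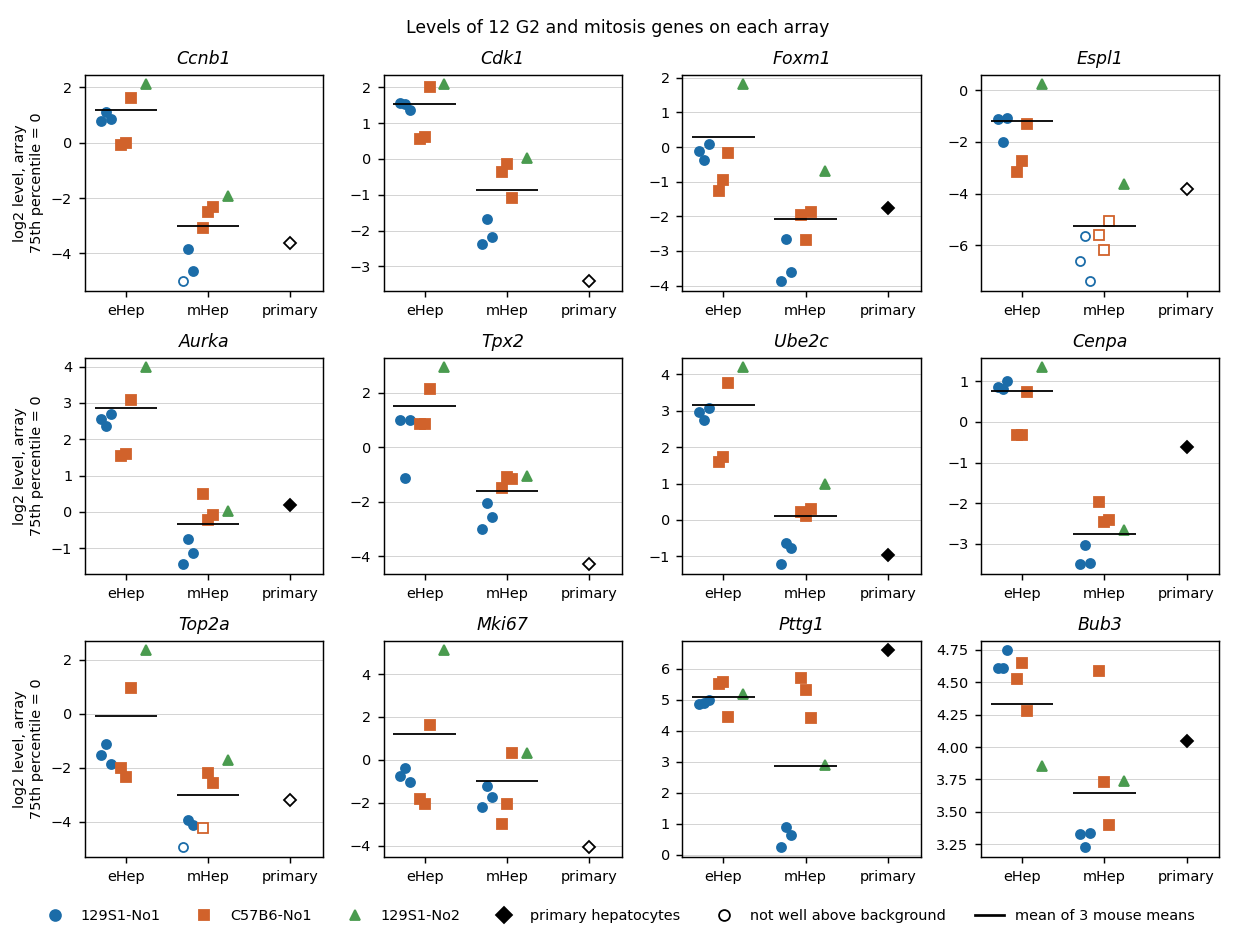
Log2 level on each array (vertical axis, 0 is the array's 75th percentile) for 12 members in eHep, mHep and primary cells; filled symbols are well above background, open ones are not, and lines mark the mean of the 3 mouse means. Ccnb1, Cdk1, Espl1, Aurka, Ube2c and Cenpa show no overlap between eHep and mHep, while Pttg1 and Bub3 do.

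The spindle checkpoint held the members that differed least. Of its 4 tested genes none passed in limma, 2 had an unadjusted p under 0.05, and the list's median was -1.19. Bub3, a checkpoint protein that also works in interphase, was bright on every array: 3.85, 4.61 and 4.75 in eHep, 3.22, 3.40 and 4.58 in mHep (lowest, median, highest) and 4.04 in primary cells. Its arrays overlapped, its means were 4.33 ± 0.42 and 3.64 ± 0.31 (SD, n = 3 mice), and its difference was -0.69 (SE 0.42, adjusted p 0.51). The kinase gene Bub1 gave different answers by probe. The brightest Bub1 probe, at chr2:127626326-127626385 (mm9, minus strand), had arrays from -1.93 to 0.42 in eHep and from -1.73 to 0.39 in mHep, a difference of -0.07 (SE 0.44, adjusted p 0.97), and mHep lay lower in 1 of 3 mice. The other Bub1 probe, measured on all eHep arrays and 6 of mHep, differed by -3.48, with -4.91 in 129S1-No2 and, for C57B6-No1 and 129S1-No1, -2.67 and -2.85.

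Bub1b, the BubR1 kinase of the checkpoint, was among the larger differences at -3.36 and had an adjusted p of 0.0505, just outside the threshold. Its arrays did not overlap: -2.12 to 1.25 in eHep and -5.95 to -2.67 in mHep. Mad2l1, which binds Cdc20 until attachment is complete, had a difference of -1.69 (adjusted p 0.15). The probes of Mad2l1 differed by -1.69 and -1.66. Ttk, the Mps1 kinase, was measured on 2 arrays of eHep and 1 of mHep and was the 1 member without a test.

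Of the genes that trigger anaphase, Ube2c and Espl1 passed. Espl1, which encodes separase, was well above background on all 7 eHep arrays (-3.15, -1.30 and 0.23 for the lowest, the median and the highest) and on 1 mHep array, that of 129S1-No2 at -3.61. The mHep arrays ran from -7.40 through -5.63 to that value. No mHep array reached the eHep arrays, and the difference was -4.07 (SE 0.49, adjusted p 0.022). Since most mHep readings lay under background, its size depends on that floor: 16.8-fold on the readings as they stand and 9.08-fold with each reading raised to the dimmest signal of its array that still counts as measured. Ube2c, the ubiquitin-conjugating enzyme of the anaphase-promoting complex, was measured on every array. It lay at 1.61, 2.96 and 4.19 in eHep and at -1.22, 0.10 and 1.00 in mHep, and differed by -3.05 (SE 0.46, adjusted p 0.038), with means of 3.16 ± 0.93 and 0.11 ± 0.94 (SD, n = 3 mice). Cdc20, the activator of the complex, had eHep arrays at 2.03, 2.58 and 4.56 and mHep arrays at -2.02, 0.17 and 1.20, with no overlap, and its difference of -3.18 had an adjusted p of 0.0595.

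Pttg1, which encodes securin, the inhibitor of separase, stood apart in its spread. Its eHep arrays were close together at 4.43 to 5.55, with mouse means of 5.08 ± 0.15 (SD, n = 3 mice), while its mHep arrays ran from 0.23 to 5.69, with means of 2.87 ± 2.28. The difference was -2.21 (SE 0.81, adjusted p 0.28). All 3 mHep arrays of 129S1-No1 lay at 0.23 to 0.90, that of 129S1-No2 at 2.89, and those of C57B6-No1 at 4.42, 5.29 and 5.69.

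The 4 genes of the aurora group had differences from -3.20 to -2.84, with 2 of them past the threshold. Aurka, the kinase of centrosomes and spindle poles, had eHep arrays at 1.54, 2.54 and 3.98 and mHep arrays at -1.44, -0.23 and 0.48 (lowest, median, highest). It differed by -3.20 (SE 0.50, adjusted p 0.0435) with no overlap. Tpx2, which activates Aurka on the spindle, had eHep arrays at -1.11, 0.99 and 2.93 and mHep arrays at -3.01, -1.50 and -1.04, and differed by -3.11 (SE 0.45, adjusted p 0.035). One eHep array of 129S1-No1, at -1.11 beside 1.01 and 0.99 for the other arrays of that mouse, made the Tpx2 groups overlap. Aurkb and Birc5 (survivin), of the chromosomal passenger complex, differed by -2.84 and -3.12 with adjusted p-values of 0.086 and 0.053.

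Among the motor kinesins 1 of 6 passed. Kif20a, which works in cytokinesis, had eHep arrays at 1.36, 2.57 and 4.14 and mHep arrays at -1.24, -0.26 and 0.12, with a difference of -3.20 (SE 0.51, adjusted p 0.044), and its other probe differed by -3.38. Kif23, of the central spindle, and Kif22, which pushes chromosome arms outwards, had arrays without overlap and differences of -3.39 and -2.75, with adjusted p-values of 0.053 and 0.055. Kif2c, which takes microtubules apart at kinetochores, was measured on 6 eHep and 2 mHep arrays and differed by -3.09 (adjusted p 0.089). Kif4, of the midzone and condensing chromosomes, differed by -2.63, and Kif11, which pushes spindle poles apart, by -2.36 with an adjusted p of 0.26.

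At the centromere and kinetochore, Cenpa passed and the other 4 genes did not. Cenpa, the histone H3 variant that marks centromeres, had eHep arrays at -0.33, 0.82 and 1.34 and mHep arrays at -3.51, -2.66 and -1.98, no overlap, and a difference of -3.52 (SE 0.51, adjusted p 0.035). Its means were 0.76 ± 0.67 and -2.76 ± 0.54 (SD, n = 3 mice), 11.5-fold higher in eHep. Ndc80 and Nuf2, which hold the ends of microtubules, differed by -2.73 and -2.35 (adjusted p 0.076 and 0.20). Cenpe and Cenpf, large proteins of the outer kinetochore, had mouse means that spread by 3.28 and 3.94 (SD, n = 3 mice) in eHep, and differences of -2.70 and -2.36 with adjusted p-values of 0.28 and 0.35. Both owed most of the difference to 129S1-No2, at -5.77 and -5.52, against -0.54 and -1.37 in 129S1-No1 and -1.77 and -0.19 in C57B6-No1.

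In the midzone and cytokinesis group, Anln, the scaffold of the contractile ring, differed alike in each mouse at -2.71, -2.26 and -3.07 and passed with a mean of -2.68 (SE 0.39, adjusted p 0.035), although it was well above background on only 3 mHep arrays. With dim readings raised to the background limit the Anln difference was -2.19 and did not pass (adjusted p 0.082). Prc1, which bundles midzone microtubules, had means of 2.81 ± 1.25 and 0.28 ± 1.17 and differed by -2.53 (adjusted p 0.064). Nusap1 and Ect2, a microtubule binder and the activator of RhoA at the cleavage furrow, differed by -2.29 and -2.26. Neither of the chromosome pair passed in limma, though both had an unadjusted p under 0.05. Top2a, the topoisomerase that untangles chromosomes, had eHep arrays at -2.33, -1.54 and 2.35 and mHep arrays at -4.95, -3.95 and -1.71, with a difference of -2.92 (SE 0.52, adjusted p 0.061).

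The other chromosome gene, Mki67, encodes the Ki-67 protein used to stain cycling cells. Its eHep arrays lay at -2.07, -0.73 and 5.10 and its mHep arrays at -2.98, -1.72 and 0.34 (lowest, median, highest), so the groups overlapped widely. The means were 1.21 ± 3.37 and -0.98 ± 1.14 (SD, n = 3 mice), and the difference of -2.19 had a standard error of 0.83 and an adjusted p of 0.30. By mouse it was -4.76 in 129S1-No2 against -0.99 for 129S1-No1 and -0.81 for C57B6-No1, and the other Mki67 probe gave -5.16, -1.05 and -1.31.

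Over all 65 probes of the members, 63 had a mean below 0 and 50 lay at -1 or below. The exceptions above 0 were a Foxm1 probe that was well above background on no cultured array and 1 of the 4 Bub3 probes, at 0.23. In 21 members with several probes, the probes lay over 1 log2 unit apart in 11, among them Cdk1 and Espl1, whose second probe was well above background on no cultured array.

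The next comparison set the cultured cells against the single primary array. Its one fit, with 3 groups and no block, took the spread of the primary array to be that of the cultured means and asked for adjusted p under 0.05 and a log2 difference of at least 1. Of 36 members tested, 8 were higher in eHep: Ccnb1, Cdk1, Plk1, Ube2c, Tpx2, Birc5, Kif20a and Prc1. The same call was made for 6.53% of the 14359 genes tested. A tested member not well above background on the primary array had met the brightness rule through eHep alone, where it read higher. A difference was thus built into its selection, as for 4 of the 8: Ccnb1, Cdk1, Tpx2 and Prc1. The primary array was below every eHep array for 28 of 36 members, against 28.4% of genes. Of these members the primary array measured Ccnb2, Plk1, Foxm1, Cdc20, Ube2c, Aurka, Birc5, Kif20a, Kif22 and Cenpa above background. For the others its reading lay under background, so their order can depend on that floor. The median member difference was 3.21, against -0.13 for all genes, and 17 members had an unadjusted limma p under 0.05. With normexp background correction 4 members passed, against 3.84% of genes. Since 23 of the 37 members were not well above background on the primary array, which was the dimmest of all with a 75th percentile signal of 78.3 against 249 to 827 on the cultured arrays, the folds of those members are bounds.

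Plk1, Ube2c, Birc5 and Kif20a were well above background on the primary array, at -0.14, -0.97, 1.38 and -1.23. They were 10.2-fold, 17.6-fold, 10.8-fold and 16.8-fold higher in eHep, with adjusted p-values of 0.046, 0.030, 0.047 and 0.031. The other 4 were not, and their signal was at least 9.77-fold higher in eHep for Ccnb1 (adjusted p 0.029), at least 12.6-fold for Cdk1 (0.013), at least 12.3-fold for Tpx2 (0.015) and at least 30.4-fold for Prc1 (0.033). Each bound sets the eHep mean against the dimmest measured signal of the primary array or the probe's own reading, whichever was higher. Without C57B6-No1 none of the members passed in eHep, with 19 at an unadjusted limma p under 0.05, and 1.97% of all genes were then called higher. With the 5 arrays of the earlier scan alone, which hold the primary array, 27 of 37 passed against 15.5% of genes.

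In mHep no member of the 29 tested passed in limma in either direction. At an unadjusted p under 0.05, 2 read higher in mHep (Cdk1 and Tpx2) and 2 lower (Pttg1 and Cenpa). At the adjusted threshold with its fold limit, 4.29% of genes were called higher, and the share at the unadjusted p is not given. Cdk1 and Tpx2 were not well above background on the primary array and met the brightness rule through mHep alone, where they read higher. A difference was thus built into their selection. The median member difference was 0.33, against -0.29 for all genes. The primary array lay below every mHep array for 7 of 36 members, against 24.9% of genes. None of the 7 was well above background on the primary array, so their order can depend on that floor. Cdk1 was 0.02 to -2.37 on the mHep arrays and -3.42 on the primary array (adjusted p 0.12), and Mki67 -2.98 to 0.34 against -4.08 (adjusted p 0.41). A p that misses the threshold against 1 array does not show that mHep and primary cells were alike. Neither Cdk1 nor Mki67 was well above background on the primary array, which allows only a bound: mHep was at least 2.38-fold higher for Cdk1 and at least 2.20-fold higher for Mki67. The bound for Tpx2 was 1.42-fold. Of the members measured on the primary array, the 95% interval of mHep minus primary ran from -1.89 to 2.35 for Plk1 and from -1.20 to 3.37 for Ube2c.

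Some members had levels as high or higher on the primary array. A level depends on the array's 75th percentile, a signal of 78.3 on the primary array against 249 to 827 on the cultured arrays. The unscaled signal of Pttg1 was 7500 on the primary array, 7421 to 29902 in eHep and 736 to 22299 in mHep. That of Bub3 was 1291, 6076 to 12836 and 6129 to 7876. Pttg1 had its highest level of all arrays on the primary array, 6.58, against eHep arrays of 4.43 to 5.55 and mHep arrays of 0.23 to 5.69. The differences were -1.50 in eHep and -3.71 in mHep (adjusted p 0.53 and 0.16). Cdc20 read 1.53 on the primary array, below all eHep arrays (2.03 to 4.56) and above every mHep array. Cenpa also lay between them, at -0.61, and Cenpf stood at -1.28, above all mHep arrays (-5.70 to -1.89). Bub3, at 4.04, lay within the range of both media.

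**Figure D3:**
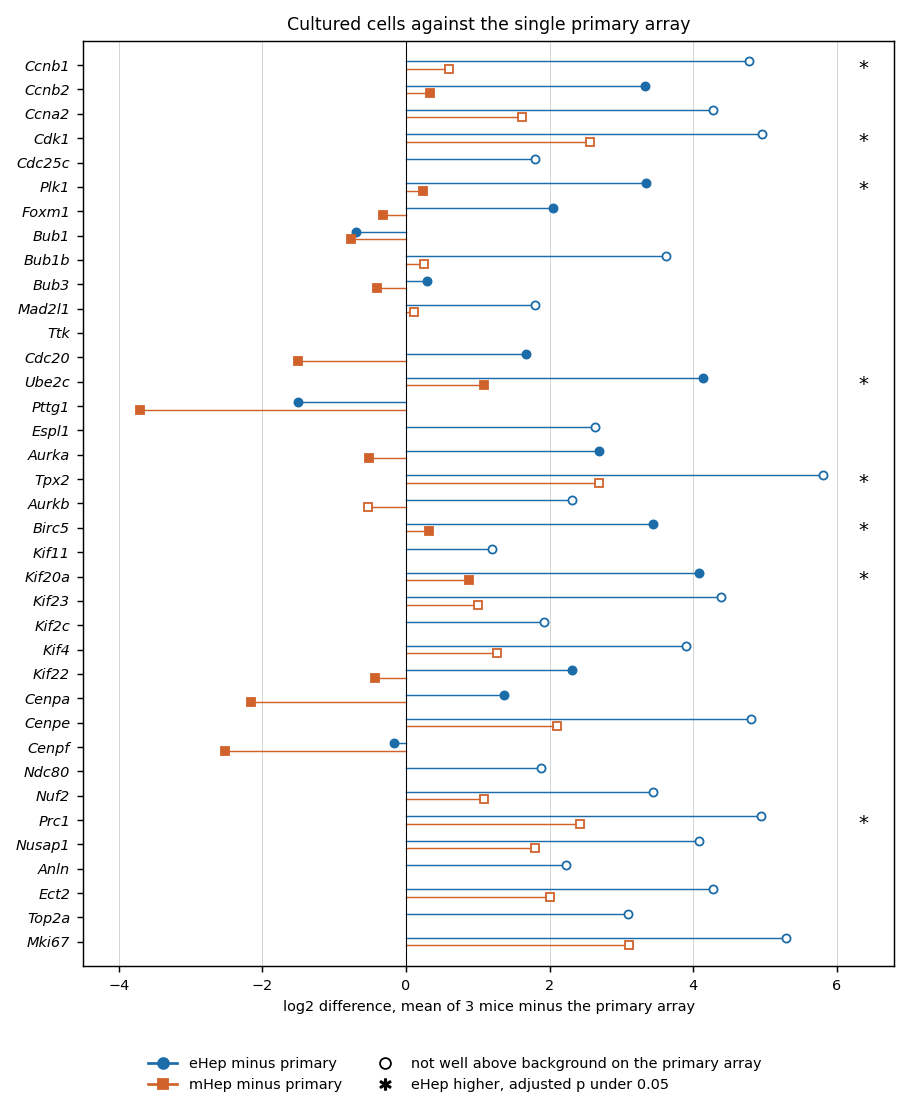
Log2 difference of the mean of 3 mice from the single primary array (horizontal axis) for eHep (circles) and mHep (squares) with lines from 0, one row per tested member and comparison; open symbols mark members not well above background on the primary array. Stars mark the 8 members higher in eHep past the threshold; mHep has none.

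Each of 2 mice had 3 arrays per medium, which allowed the fall to be read within a mouse. In 129S1-No1, 29 of 36 members were lower in mHep, and in C57B6-No1 21 of 36, where limma called 27.1% and 13.4% of the 15749 genes lower. No member was higher in either. Of the 29, Cdc25c, Espl1, Kif2c, Ndc80, Anln and Top2a met the brightness rule through eHep alone, where they read higher. A difference was thus built into their selection, and Cdc25c, Espl1, Kif2c and Anln are also among the 21. Only 1 of the 6 mHep arrays of these mice, replicate 3 of C57B6-No1, measured Cdc25c, Kif2c and Ndc80 above background. The sizes of their falls are not known. Cdc25c was also not well above background on eHep replicates 1 and 2 of C57B6-No1. All 21 of the C57B6-No1 members were also among the 29, and 7 tested members passed in neither mouse: Bub1, Kif11, Cenpe, Cenpf, Nusap1, Ect2 and Mki67. The medians were -3.22 and -1.59, against -0.38 and -0.09 for all genes. Ccnb1 changed by -5.40 (SE 0.45) in 129S1-No1 and by -3.14 (SE 0.45) in C57B6-No1. The readings of Espl1 changed by -5.14 and -3.22, but none of the 6 mHep arrays of these mice measured it above background, so its size is not known. Tpx2 fell by 2.83 and 2.53 and Anln fell by 2.71 and 2.26 in these mice. Only 2 of the 6 mHep arrays of these mice measured Anln above background, so the size of its fall depends on that floor. With normexp background correction the counts were 16 and 11, against 15.7% and 4.36% of genes.

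The fall differed in size between these mice for 14 of 36 members, each with the larger fall in 129S1-No1, where 10.3% of all genes differed in that direction. Pttg1 had the largest difference between mice, 4.31 (SE 0.53, adjusted p 0.000563), from -4.33 in 129S1-No1 and -0.02 in C57B6-No1. Kif2c followed on its readings with 3.22 (SE 0.60, adjusted p 0.006), but only 1 of its 6 mHep arrays in these mice was well above background, so the size is not a measured one. With dim readings raised to the background limit it was 2.50 (adjusted p 0.00795). Its eHep arrays were -2.28, -2.27 and -1.99 in 129S1-No1 and -4.15, -4.30 and -2.90 in C57B6-No1, and its mHep arrays were -7.02, -6.95 and -6.58 against -5.92, -5.35 and -4.41. The others were Ccnb2 (2.83), Aurkb (2.74), Cdc20 (2.54), Bub1b (2.33), Ccnb1 (2.26), Plk1 (2.26), Birc5 (2.25), Cdk1 (1.96), Cenpa (1.92), Foxm1 (1.85), Kif20a (1.53) and Kif22 (1.48), each a difference of log2 changes. Of all the members, Cenpe alone fell more in C57B6-No1 (-1.77) than in 129S1-No1 (-0.54), which was not past the threshold (adjusted p 0.59).

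Between the mice, the median member level was 1.21 higher in C57B6-No1 in mHep and differed by -0.47 in eHep. The mHep level was higher in C57B6-No1 for 14 members, where 15.8% of all genes were, and the eHep level was lower in C57B6-No1 for 2, Plk1 and Kif2c, against 14.9%. Pttg1 in mHep differed by 4.55 (SE 0.38) and Kif23 by 2.96 (SE 0.53). For 129S1-No1 every eHep array lay on one slide and every mHep array on another, while C57B6-No1 had an eHep array on each of those slides, which lets slide be fitted as a block. With that block the difference of falls was past the threshold for 3 of 36 members, Pttg1, Ccnb2 and Kif2c, against 8.46% of all genes called in either direction. The mHep difference then passed for 2 in either direction (14.2% of genes), with a median of -0.15 in place of 1.21. Pttg1 stayed higher in C57B6-No1 (4.96), while Kif11, not among the 14, read lower there (-3.79). The eHep difference then passed for 9 (19.8%). With the arrays of the later scan alone these counts were 28, 23 and 21, against 35.9%, 49.2% and 33.5% of genes, and leaving out single arrays moved the difference of falls to between 8 and 26. The highest count came without the third C57B6-No1 eHep array, and counts of 8 came without any 1 of the eHep arrays of 129S1-No1, eHep replicate 1 or 2 of C57B6-No1, or mHep replicate 1 or 3 of 129S1-No1. The eHep count fell to 0 without the third eHep array of 129S1-No1 or the first or second of C57B6-No1, was 1 without the first of 129S1-No1 and rose to 13 without the third of C57B6-No1, and the mHep count fell to 7 and 9 without the first and the third mHep array of 129S1-No1. With normexp these 3 counts were 4 (difference of falls), 0 (eHep) and 4 (mHep), against 3.87%, 9.47% and 11.3% of genes, the eHep count of 0 coming with 2 members at an unadjusted limma p under 0.05. Scaled on the probes detected on every array, 9 members differed in their fall, against 17.9% of genes, and the median of all genes moved from 0.26 to -0.01.

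**Figure D4:**
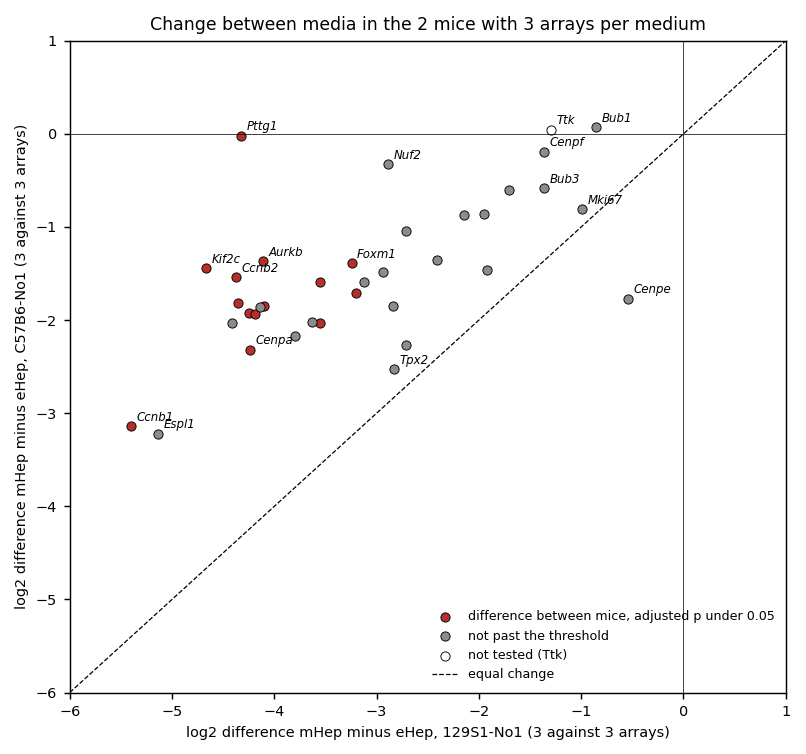
The log2 change from eHep to mHep in 129S1-No1 (horizontal axis) against C57B6-No1 (vertical axis), one point per member, each from 3 against 3 arrays, with the dashed line where both are equal. Members with a difference between mice past the threshold are red, 14 in number; all points but Cenpe lie above the line.

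The arrays were scanned in 2 sittings, and C57B6-No1 alone had arrays of both media in both. Its eHep replicate 3, of the earlier scan, read higher than the other eHep arrays of the mouse for most members: the median gap over 36 members was 1.59, against -0.29 for all genes. The gap was 5.28 for Cenpf, 4.21 for Cenpe, 3.77 for Kif11, 3.57 for Mki67, 3.51 for Nusap1 and 3.13 for Top2a, while Bub1 (-1.40), Pttg1 (-1.09) and Bub3 (-0.31) read lower. In mHep the median gap was 0.46, led by Cenpf (3.65), Mki67 (2.85) and Cenpe (2.64). The eHep array of 129S1-No2, also in the earlier scan, was the highest of all eHep arrays for Mki67 (5.10), Cenpe (4.38) and Cenpf (3.07).

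Most members read lower in mHep within each scan: 36 of 36 in 129S1-No1, 36 of 36 and 32 of 36 in the earlier and later scans of C57B6-No1, and 35 of 36 in 129S1-No2. The exceptions were Nuf2 (0.47), Kif11 (0.46), Cenpf (0.35) and Bub1 (0.20) in the later scan of C57B6-No1 and Bub1 (0.58) in 129S1-No2. In the earlier scan the median change was -2.58 in C57B6-No1, whose eHep and mHep arrays there shared a slide, and -3.80 in 129S1-No2, and in the later scan it was -1.24 in C57B6-No1 and -3.22 in 129S1-No1. All genes had medians of -0.13, 0.06, -0.07 and -0.37. Of the 14602 genes tested, 8165, 6934, 7841 and 9006 read lower in mHep, in the same order. With arrays as samples and mouse as a block, limma called 34 of 37 members lower in the earlier scan, against 4.45% of genes, and 28 of 31 in the later one, against 34.5%. For Mki67 the change was -1.29 and -4.76 in the earlier scan (C57B6-No1 and 129S1-No2) and -0.57 and -0.99 in the later one (C57B6-No1 and 129S1-No1). The part of the scan in the size of the change was not tested.

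**Figure D5:**
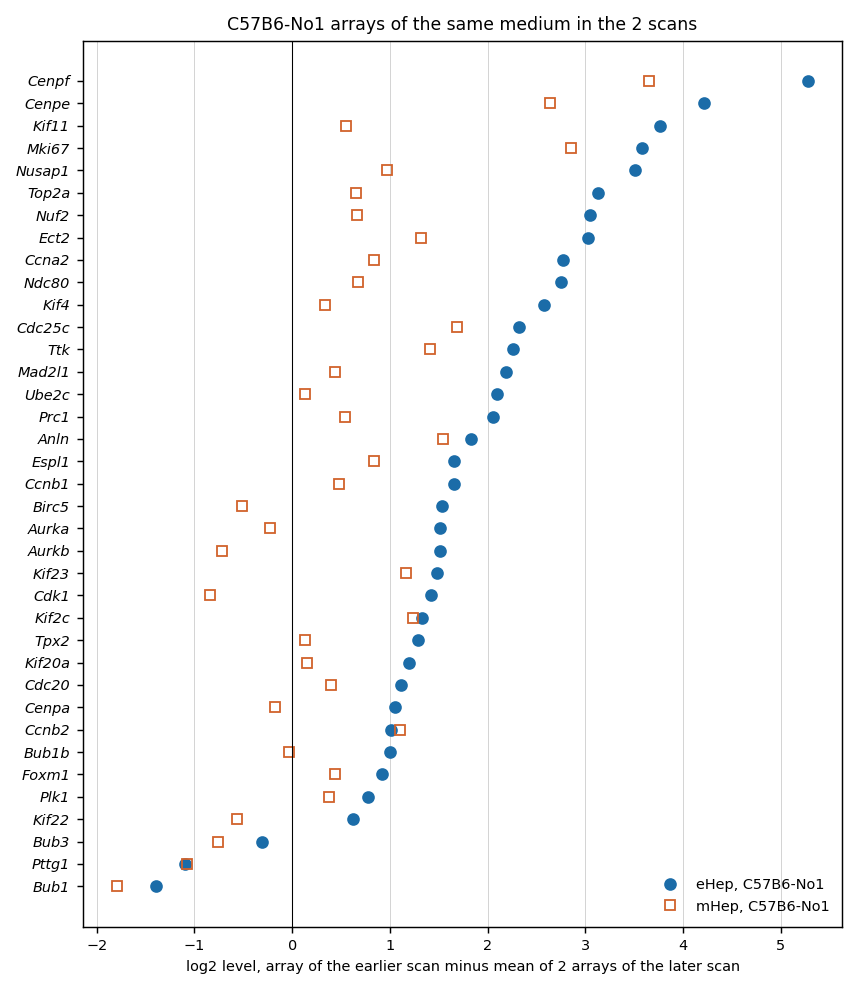
Log2 level on the C57B6-No1 array of the earlier scan minus the mean of its 2 arrays of the later scan (horizontal axis), for eHep (circles) and mHep (squares), one row per member. Cenpf, Cenpe, Kif11 and Mki67 read 3.57 to 5.28 higher in eHep, and Bub3, Pttg1 and Bub1 read lower.

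Other genes of the same pathways were read from lists set out by role. Of 115 tested genes of mitotic entry, checkpoint, kinetochore, spindle, cytokinesis and condensins that are no members, 10 were lower in mHep and none higher, with a median of -1.48. They were Ccnf, Gtse1, Trip13, Cenpw, Ska3, Spag5, Kif18b, Kifc1, Iqgap3 and Depdc1b, and the largest were Kif18b at -3.64 (adjusted p 0.018) and Spag5 at -3.43 (adjusted p 0.019), a kinesin and a spindle protein. Limma called 0.452% of all genes lower and 1.38% higher. Gtse1, Trip13 and Cenpw were measured on every cultured array. Ccnf was measured on 7 eHep and 2 mHep arrays and met the brightness rule in eHep alone, so a difference was built into its selection. The brightness of the remaining called genes is not given here. In the entry list 2 of 21 fell, Gtse1 (adjusted p 0.0296) and Ccnf (-2.98), with Mybl2, which encodes B-Myb, at -2.87 (adjusted p 0.075). In the kinetochore list 2 of 27 fell, Ska3 (-2.90) and Cenpw (-2.67), while Ska1 differed by -3.29 (adjusted p 0.0675). In the checkpoint and anaphase list 1 of 29 fell, Trip13 (-2.90), while the shugoshin gene Sgol1 differed by -3.14 (adjusted p 0.0831). The spindle and cytokinesis list had 5 of 28. Of the 10 condensin and chromatin genes none passed in limma, with 6 at an unadjusted p under 0.05, and Ncapg and Ncaph differed by -2.91 and -2.87. Of the 28 S-phase genes 1 fell, the polymerase gene Pole at -2.76 (adjusted p 0.040), and all 28 had a mean below 0, with a median of -1.62. Mcm3 and Mcm5, of the replicative helicase, differed by -2.27 and -2.21 without passing.

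The genes that hold division back were mixed. Of 21 tested repressors and inhibitors, 1 fell, E2f7 at -3.36 (adjusted p 0.028), and 12 of 21 lay below 0 with a median of -0.51. E2f8 differed by -1.80 (adjusted p 0.16) and Rbl2, which encodes the p130 subunit of DREAM, by 1.57 (adjusted p 0.13). The hepatocyte markers moved opposite to the members: 5 of 6 were higher in mHep, from 6.87 for Ttr to 11.78 for Ahsg, on the log2 scale. Limma called 1.38% of all genes higher. Each eHep array measured only 2 to 5 of the 6 markers above background, and none measured Ttr. Ttr thus met the brightness rule through mHep alone, where it read higher. A difference was built into its selection, and its size depends on the background floor.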

How the data were processed

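Total RNA of 7 eHep, 7 mHep and 1 primary hepatocyte sample was labelled with Cy3 and hybridised to one-colour Agilent mouse arrays, per the labels' protocols. The deposited scanner files hold spot intensity values that Agilent Feature Extraction had background-corrected (gProcessedSignal), with probe positions on mm9, per the file headers. The authors' deposited table of log2 values served as an alternative: it rose with the quantile-normalized log2 signal of the same array with a slope of 1.00, every column had a median of 4.92, and genes were not centred. No spot was saturated.

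Spots of a probe were averaged without those called outliers, log2 was taken, each array's 75th percentile was subtracted, and each gene was read from its brightest probe. Tests used limma 3.58.1 in R 4.3.3 (lmFit and eBayes, Benjamini-Hochberg over all genes tested, adjusted p under 0.05). For the media, a gene was tested if every array of 2 or more mice read its probe well above background in eHep or in mHep. Against primary cells it had to pass that in the medium or be well above background on the primary array. Within mice, all 3 arrays of 1 mouse and medium had to pass. Scripts were tested on simulated data. The number of arrays limits the precision.

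The media were paired by mouse, since the study grew each mouse's cells in both. Deviations of the mouse means correlated over genes at 0.397, 0.563 and 0.539 within a mouse and at 0.012 or below between mice. A gene's deviations sum to 0 over the mice of a medium, so high values within a mouse force low ones between mice. Mouse was also tied to scan: 129S1-No1 had arrays in the later scan only and 129S1-No2 in the earlier only. The part of the scan in these correlations was not tested. The count without that block is printed beside the result.

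All members are named. Values per array are given for Mki67, Top2a, Ccnb1, Cdk1, Foxm1 and Bub3, for the 8 largest differences past the threshold, the 2 smallest differences, the 2 members that differed most between mice and the 3 brightest on the primary array. Of each further list up to 3 genes with the largest differences are named, and genes that passed by name alone; other values given were chosen after they were seen. The members and lists were chosen with earlier results of these data known. Promoter sequences are from RefSeq (GRCm38.p6), where 6 members (Ccna2, Tpx2, Aurkb, Kif20a, Foxm1 and Cdc25c) were not matched.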

Additional observations from a re-analysis of the deposited data

Results flagged for a closer look

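In 74 checks of single arrays within a medium, 2 members had an array far from the other 6, where chance gives about 1 in 20. Bub1b read 1.25 on the eHep array of 129S1-No2, against -0.94 on the next highest. Bub3 read 4.58 on the first mHep array of C57B6-No1, against 3.73 on the next. Its unscaled signal there, 6129, was the lowest of the mHep arrays, which reached 7876. The 75th percentile subtracted from that array was a signal of 256, against 569 to 727 on the other mHep arrays.

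The change from eHep to mHep differed between C57B6-No1 and 129S1-No1 for 14 of 36 members by limma's test of the difference, each less negative in C57B6-No1. Limma called 10.3% of all genes in that direction. On the log2 scale the change in C57B6-No1 minus that in 129S1-No1 was 4.31 for Pttg1, 3.22 for Kif2c, 2.83 for Ccnb2, 2.74 for Aurkb, 2.54 for Cdc20, 2.33 for Bub1b, 2.26 for Ccnb1, 2.26 for Plk1, 2.25 for Birc5, 1.96 for Cdk1, 1.92 for Cenpa, 1.85 for Foxm1, 1.53 for Kif20a and 1.48 for Kif22. Only 1 of the 6 mHep arrays behind the Kif2c value was well above background. With slide as a block 3 of the 14 passed, Pttg1, Ccnb2 and Kif2c. Mouse and strain cannot be told apart.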

How the results depend on the processing

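The counts of members past the threshold moved more than the differences did. They are to be read beside the share of all genes called, printed with the results above for many of these settings. No share is given for some, such as the counts of 1, 14, 26, 30 and 29 below. A count without its share does not set the members apart from other genes. Between the media, where 9 members were lower, the count was 0 with quantile normalization and with the deposited table, 1 when arrays were scaled on the probes that every array detected, 14 with dim readings lifted to the background limit, which hold 7 of the 9 (not Cdc25c or Anln), and 26 with no filter. It was 31 with 14 arrays, 30 with slide as a further block, 29 with the mHep array of 129S1-No2 left out, 34 in the earlier scan, 28 in the later one, and 20 to 32 without 1 mouse. The 31, 30, 29 and 28 come from fits that treat arrays of 1 mouse as independent. With 14 arrays and in each scan the share of all genes called was also larger than in the main fit, as given above. Without the replicate block (mouse left out of the model) the count was 0 of 36. Among the members' own differences, Bub1 changed sign, to 0.048 with the scaling on detected probes, and ran from -0.39 to 0.33 without 1 mouse, the latter without 129S1-No1.

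Against the primary array the 8 members higher in eHep became 4 with normexp and 27 in the earlier scan, and 0 to 11 without 1 mouse. For mHep the count of 0 became 1 with quantile normalization and with the deposited table, 2 in C57B6-No1 alone and 4 in the earlier scan, and 0 to 1 without 1 mouse. The lone primary array was assumed to vary like the cultured ones.

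Within mice normexp took the 29 members of 129S1-No1 to 16 and the 21 of C57B6-No1 to 11, and leaving out 1 array gave 27 to 29 and 14 to 21. The 14 differences of falls became 4 with normexp, 9 with the scaling on detected probes, 9 with no filter, 3 with slide as a block and 28 in the later scan, and 8 to 26 without 1 array. The 2 eHep differences became 0 with normexp, with quantile normalization, with the scaling on detected probes and with the deposited table, 1 with no filter, 9 with slide and 21 in the later scan, and 0 to 13 without 1 array. The 14 mHep differences, all higher in C57B6-No1, became 4 with normexp, 2 with slide and 23 in the later scan, and 7 to 14 without 1 array. These counts take either direction. Of the 2 with slide, Pttg1 was among the 14, while Kif11 was not and read lower in C57B6-No1. The replicate block of culture number gave 31, 21, 18, 3 and 13 for the 5 counts within mice and moved none by more than 1.5 times. The causes of these moves were not tested. Signal near background limits the size of the change for Espl1, Cdc25c, Anln, Kif2c, Ndc80 and Kif11, each well above background on 3 or fewer mHep arrays.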
